A study of Mus musculus with 8 samples.

Results

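The S100 genes encode small calcium-binding proteins, and the 8 described here are S100a1, S100a3, S100a4, S100a6, S100a10, S100a11, S100a13 and S100a16, which are not the granule and cytosol S100 genes of neutrophils. They were taken by symbol from a table of 57132 genes, and each had a row. All 8 passed the filter on low counts and were among the 16588 genes tested. Bulk RNA-seq was made from subcutaneous tumours of the KPC model of pancreatic cancer, grown in mice. For the 4 PDT samples (photodynamic therapy) the treatment was Ce6@D4-EV with light, Ce6 being chlorin e6, a photosensitiser, and D4-EV its carrier as the submitters name it. For the 4 PBS samples it was PBS, a salt buffer. Both groups carry the same tumour, and they differ in photosensitiser, carrier and light together, so these cannot be told apart. The tissue is labelled as sorted with no gate named, and no age, dose or time of harvest is labelled. Whether each sample is its own animal is not labelled either, and the p-values therefore reflect sample-to-sample spread, which may be technical.

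An S100 protein folds around a pair of EF-hands, helix-loop-helix motifs that hold calcium, and usually works as a dimer. Calcium opens the dimer so that it grips a partner such as an annexin or a myosin heavy chain, and some S100 proteins also leave the cell and act on surface receptors such as RAGE. In pancreatic cancer and its stroma, several are known as abundant proteins of tumour cells, fibroblasts and leukocytes. In mouse all 8 genes lie on chromosome 3, where S100a1, S100a13, S100a16, S100a3, S100a4 and S100a6 follow each other in one cluster of 12 S100 genes that ends with the neutrophil genes S100a8 and S100a9. S100a11 and S100a10 lie further along the same chromosome. S100a1 and S100a13, on opposite strands, are listed as overlapping in the RefSeq annotation of GRCm38.p6, and S100a3 as overlapping S100a2. Their counts are therefore uncertain where reads could have been split. S100a2 had 0 reads in all 8 libraries.

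Upstream sequences were available for 7 of the 8 genes (not S100a10) from RefSeq, on build GRCm38.p6, whereas the counts were made on GRCm39. They are shown for S100a11, the gene whose groups did not overlap, and for S100a4, which varied most among PDT libraries. Each run covers the 250 bases before the annotated start, 5′ to 3′ on the plus strand, and capitals mark matches on either strand to the AP-1 motif TGANTCA, the GC box GGGCGG or the TATA box TATAAA.
S100a11, chr3:93520246-93520495: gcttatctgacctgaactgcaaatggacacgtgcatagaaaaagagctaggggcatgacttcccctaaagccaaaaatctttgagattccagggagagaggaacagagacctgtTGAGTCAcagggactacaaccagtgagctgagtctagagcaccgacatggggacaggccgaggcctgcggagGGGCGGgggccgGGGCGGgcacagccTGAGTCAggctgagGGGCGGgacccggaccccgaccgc
S100a4, chr3:90603520-90603769: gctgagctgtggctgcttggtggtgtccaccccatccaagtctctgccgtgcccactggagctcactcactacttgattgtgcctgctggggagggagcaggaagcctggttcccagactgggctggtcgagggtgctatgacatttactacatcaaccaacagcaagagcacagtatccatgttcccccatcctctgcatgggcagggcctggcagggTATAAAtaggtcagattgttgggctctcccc
The S100a11 window held 2 AP-1 matches, which began 136 and 38 bases before the start, and 3 GC boxes. Of 32851 RefSeq windows of this length, 6.75% held an AP-1 match and 32.7% a GC box. The S100a4 window held a TATA box that began 31 bases before the start, which 12.4% of windows held, and no AP-1 match. The S100a13 window, not printed because it runs into S100a1, held none of the 3 motifs, and neither did that of S100a1. The windows of that pair have 104 bases in common, which lie before the annotated start of each gene. The matches describe the letters alone, and no binding was measured.

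Per length of transcript, S100a6, S100a11 and S100a10 were the most abundant of the 8 genes in both groups. Levels are CPM, counts scaled to library size, and for comparisons between genes they were divided by the median transcript length in kilobases. S100a6, or calcyclin, stood at 3034 ± 841 CPM per kb in PDT and 2571 ± 545 CPM per kb in PBS (SD, n = 4 each). S100a11 stood at 2007 ± 132 CPM per kb in PDT and 1573 ± 197 CPM per kb in PBS. S100a10 stood at 1490 ± 261 CPM per kb in PDT and 1319 ± 276 CPM per kb in PBS. S100a6 was above S100a11 in 8 of 8 libraries and S100a11 above S100a10 in 7 of 8, although the ranges of each pair over the libraries overlapped. By mean CPM, S100a6 lay at percentile 99.6 of tested genes, S100a11 at 99.2 and S100a10 at 99.1.

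A gap separated these from S100a16 and S100a1. S100a16 was at 386 ± 43.9 CPM per kb in PDT and 337 ± 17.8 CPM per kb in PBS, and S100a1 at 190.4 ± 29.3 CPM per kb in PDT and 164 ± 14.5 CPM per kb in PBS (SD, n = 4 each). Their ranges over the 8 libraries did not overlap with each other or with that of S100a10. S100a4 at 69.6 ± 40.3 CPM per kb in PDT and 74.2 ± 37.4 CPM per kb in PBS, and S100a13 at 79.5 ± 24.9 CPM per kb in PDT and 40.1 ± 21.1 CPM per kb in PBS, were not separated from each other. S100a4 was the higher of this pair in 5 of 8 libraries. S100a3 was lowest, at 2.0 ± 0.585 CPM per kb in PDT and 2.22 ± 1.07 CPM per kb in PBS. Together the 8 genes took 0.358% to 0.477% of counts in PDT libraries and 0.294% to 0.406% in PBS libraries.

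**Figure D1:**
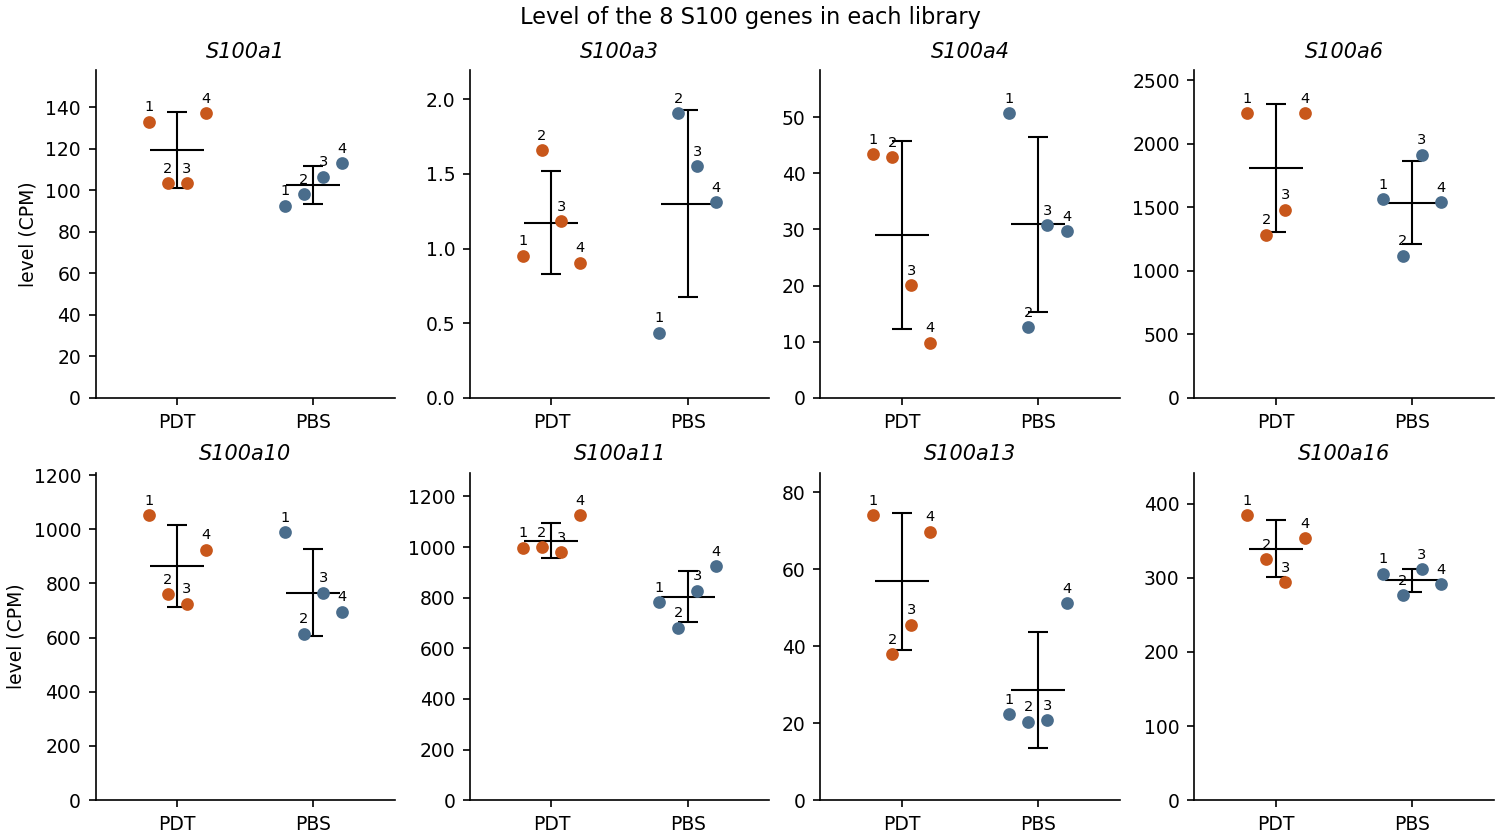
Level of each S100 gene in CPM (vertical axis, from 0) in the 4 PDT and 4 PBS libraries. Each point is 1 library with its replicate number, and the bar and whiskers are the mean and SD. S100a11 is the gene whose PDT points, 979 to 1126 CPM, all lie above its PBS points, 682 to 924 CPM, and the S100a13 point of PBS 4 at 51.2 CPM lies apart from the other PBS points.

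Whether the treated tumours differed from the PBS tumours in these genes was read from a fit of all tested genes. None of the 8 members passed an adjusted p of 0.05 (edgeR quasi-likelihood test, Benjamini-Hochberg over all tested genes), a threshold that 0.235% of all tested genes passed in either direction. At an unadjusted p under 0.05, 2 of the 8, S100a11 and S100a13, were higher in PDT, against 8.63% of all tested genes, and 0 were lower, against 7.87% of all tested genes. Of the 8 genes, 6 had a positive and 2 a negative log2 fold change, with a median of 0.21 against −0.002 over all tested genes. In DESeq2, which called 3.79% of its tested genes as higher in PDT, 1 member was called, S100a13. Correcting for transcript length and GC content, described after the single genes, turned 3 of the 6 positive signs. With it the median over all tested genes also went down, from −0.002 to −0.09.

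S100a11, also called calgizzarin, binds annexin A1 and is known to take part in plasma membrane repair. It had 998, 1001, 979 and 1126 CPM in PDT 1 to PDT 4, against 782, 682, 828 and 924 CPM in PBS 1 to PBS 4. Every PDT library lay above every PBS library, as was so, with PDT higher, for 829 of 16588 tested genes (5.0%). The PDT libraries were close together, with a coefficient of variation of 6.57%, and PDT 4 stood above the rest. The log2 fold change was 0.35 ± 0.13 (SE), a fold of 1.28 with a 95% interval of 1.06 to 1.54 (edgeR, unadjusted p = 0.0164, adjusted p = 0.19). In the same libraries the summed level of the macrophage list was 1973 to 2419 CPM in PDT and 1014 to 1871 CPM in PBS. Of its markers 10 of 10 were higher in PDT, as were 49.8% of all tested genes, and none was at 0. At an unadjusted edgeR p under 0.05 there were 7 higher, against 8.63% of all tested genes. DESeq2 called 4 as higher, against 3.79% of its tested genes. In edgeR 1 of them (Cd68) passed the adjusted threshold, against 0.235% of all tested genes in either direction. Within the groups, after subtracting each group's mean from log2 values, S100a11 had a Pearson r of −0.32 with the macrophage list over the 8 libraries. Of the 12 marker lists, its values furthest from 0 were −0.81 with skeletal muscle, 0.76 with Schwann cells and melanocytes and −0.71 with adipocytes, given as descriptions with no test. The part of these cell types in the S100a11 difference was not tested. In bulk RNA, more cells of a type and more RNA per cell cannot be told apart, which holds for every difference given here.

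S100a13 is known for helping to carry FGF1 and interleukin-1 alpha, which lack a signal peptide, out of the cell. It had 74.0, 37.9, 45.6 and 69.8 CPM in PDT 1 to PDT 4, against 22.4, 20.4, 20.7 and 51.2 CPM in PBS 1 to PBS 4. The groups overlapped through a single library, since PBS 4 lay above PDT 2 and PDT 3 while the other PBS libraries lay below every PDT library. Its log2 fold change was 0.99 ± 0.32 (SE), a fold of 1.98 with a 95% interval of 1.23 to 3.21 (edgeR, unadjusted p = 0.00937, adjusted p = 0.155). This was the largest difference among the 8 genes. Without PBS 4 it was 1.44, and the adjusted p was 0.0307 in edgeR. The call was also made by DESeq2 with all 8 libraries (adjusted p = 0.0252) and by edgeR with no filter on low counts (adjusted p = 0.0198). Over all alternatives its adjusted p ran from 0.0198 to 0.342. Its cargo gene Fgf1 was at 22.1 ± 5.48 CPM in PDT and 23.97 ± 11.4 CPM in PBS (SD, n = 4 each), and Il1a at 8.98 ± 6.23 CPM in PDT and 4.90 ± 4.8 CPM in PBS.

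S100a1, known from heart and skeletal muscle for its action on calcium release and uptake, shares its start region with S100a13. It had 133, 103, 104 and 137 CPM in PDT 1 to PDT 4, against 92.7, 98.2, 107 and 113 CPM in PBS 1 to PBS 4. PDT 1 and PDT 4 stood above all PBS libraries, and PDT 2 and PDT 3 lay among them. This gave a log2 fold change of 0.22 ± 0.14 (SE), with a 95% interval of 0.945 to 1.43 for the fold (edgeR, adjusted p = 0.474). The summed level of skeletal muscle markers was 3517 CPM in PDT 2, where S100a1 was lowest among PDT libraries, and 174 to 832 CPM in the other PDT libraries. However, PDT 3 had nearly the same S100a1 level as PDT 2, with 455 CPM of muscle markers. In PBS the muscle sum ran from 59.8 CPM in PBS 4, where S100a1 was highest among PBS libraries, to 1443 CPM in PBS 2. PBS 1, where S100a1 was lowest among PBS libraries, had 275 CPM of muscle markers. Within the groups S100a1 had an r of −0.58 and S100a13 one of −0.77 with the muscle list. Of the 10 muscle markers 9 had a positive log2 fold change, as had 49.8% of all tested genes, and none was at 0 in all libraries. At an unadjusted edgeR p under 0.05 there were 3 higher in PDT, against 8.63% of all tested genes. The adjusted threshold of edgeR or of DESeq2 was passed by 0 of them. The part of muscle in the S100a1 and S100a13 values was not tested.

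S100a16, a widely expressed member, had 384, 325, 294 and 354 CPM in PDT 1 to PDT 4, against 306, 277, 312 and 291 CPM in PBS 1 to PBS 4. Of the PDT libraries, 3 lay above all PBS libraries and PDT 3 among them. On the log2 scale the fold change was 0.195 ± 0.12 (SE), and the 95% interval of the fold, 0.957 to 1.37, left out a rise of 1.5-fold (edgeR, adjusted p = 0.456).

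S100a6 binds the ubiquitin ligase partner Cacybp and annexin A11. It had 2242, 1285, 1482 and 2243 CPM in PDT 1 to PDT 4, against 1567, 1121, 1916 and 1540.2 CPM in PBS 1 to PBS 4. Its PDT values fell into a high pair, PDT 1 and PDT 4, and a low pair, PDT 2 and PDT 3, which lay inside the PBS range. The log2 fold change was 0.24 ± 0.21 (SE), with a 95% interval of 0.855 to 1.63 for the fold (edgeR, adjusted p = 0.637). Cacybp was at 121 ± 15.6 CPM in PDT and 138 ± 10.1 CPM in PBS, and Anxa11 at 93.9 ± 14.3 CPM in PDT and 85.1 ± 26.6 CPM in PBS (SD, n = 4 each).

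S100a10, or p11, is the member that does not bind calcium. It is held in a complex with annexin A2 at the plasma membrane, where it is known to promote the conversion of plasminogen to plasmin. It had 1052, 761, 725 and 924 CPM in PDT 1 to PDT 4, against 988, 615, 766 and 696 CPM in PBS 1 to PBS 4. The groups overlapped over most of their range, and PBS 1 was second only to PDT 1. Its log2 fold change was 0.18 ± 0.17 (SE), and the 95% interval of the fold was 0.87 to 1.47 (edgeR, adjusted p = 0.678).

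S100a4, also known as metastasin or fibroblast-specific protein, binds the non-muscle myosin heavy chain Myh9 and is expressed by fibroblasts and leukocytes. It had 43.4, 42.8, 20.05 and 9.82 CPM in PDT 1 to PDT 4, against 50.7, 12.6, 30.7 and 29.7 CPM in PBS 1 to PBS 4. The highest library was 4.42 times the lowest in PDT and 4.04 times in PBS, and each group had libraries above and below most of the other. This gave a log2 fold change of −0.09 ± 0.46 (SE), and the 95% interval of the fold was wide, at 0.467 to 1.89 (edgeR, adjusted p = 0.951). Its sign rested on single libraries, at 0.26 without PBS 1, 0.21 without PDT 4 and 0.05 without PDT 3. The summed level of the fibroblast list, led by Col3a1, was 12398 to 14351 CPM in PDT and 7787 to 15816 CPM in PBS, highest in PBS 1, where S100a4 was also highest. However, it was lowest in PBS 3, where S100a4 was at 30.7 CPM, and was 8947 CPM in PBS 2, where S100a4 was at 12.6 CPM. Within the groups S100a4 had an r of 0.56 with the fibroblast list, −0.71 with endothelium and −0.59 with T and NK cells, with no test. The part of fibroblasts in the S100a4 values was not tested.

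S100a3, known as a protein of the hair cuticle, had 43, 65, 53 and 37 reads in PDT 1 to PDT 4, against 16, 80, 59 and 45 reads in PBS 1 to PBS 4, or 0.904 to 1.66 CPM in PDT and 0.435 to 1.91 CPM in PBS. On the log2 scale the fold change was −0.15 ± 0.59 (SE), and the 95% interval of the fold, 0.37 to 2.20, was wide enough to hold a 2-fold change in either direction (edgeR, adjusted p = 0.939). It turned to 0.10 without PBS 2. Hair markers summed to 2.07 to 3.66 CPM in PDT and 0 to 2.23 CPM in PBS. Of the 9 with a row, 2 were tested, Tchh and Padi3, with higher means in PDT. Neither passed the adjusted threshold (adjusted p = 0.849 and 0.388 by edgeR). Their levels were low, with means of 0.796 and 1.14 CPM in PDT and 0.518 and 0.314 CPM in PBS. The hair keratins Krt34 and Krt35 were at 0 in all libraries.

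**Figure D2:**
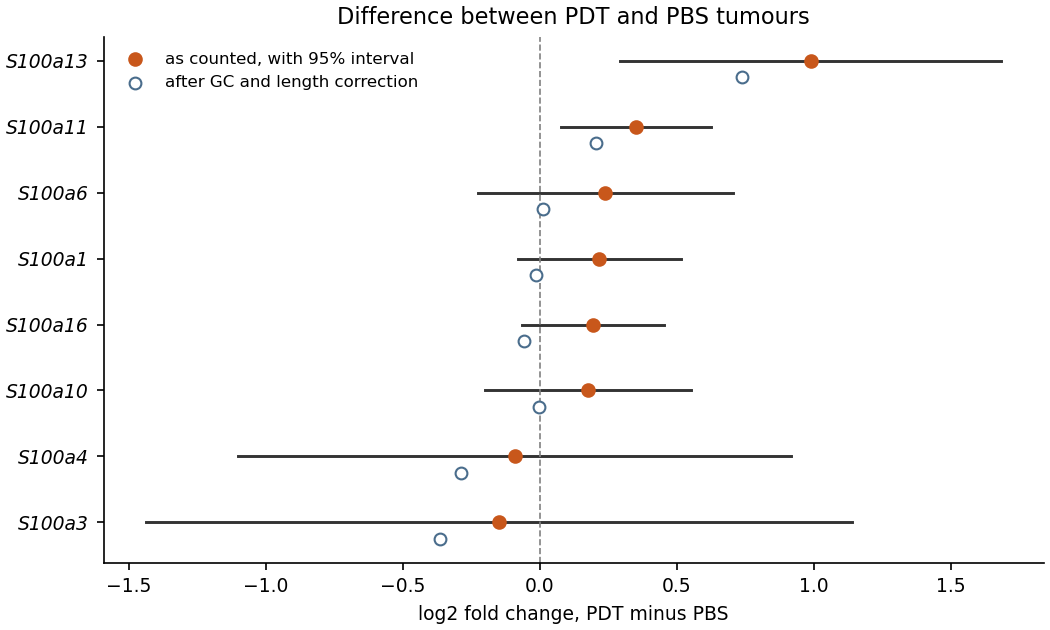
Log2 fold change of each S100 gene, PDT minus PBS (horizontal axis), from edgeR. Filled points with lines are the values as counted with their 95% intervals, and open points are the values corrected for transcript length and GC content. The intervals of S100a13 and S100a11 lie above 0, and every open point lies left of its filled point.

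All 8 genes have short transcripts, with median lengths of 417 to 879 bases, and correcting for length and GC content lowered the log2 fold change of each. After it the log2 fold change was −0.01 for S100a1, −0.001 for S100a10 and −0.06 for S100a16, so that these turned from positive to about 0 or below, and 0.01 for S100a6. S100a11 stayed at 0.20 ± 0.12 (SE, adjusted p = 0.417 by edgeR) and S100a13 at 0.74 ± 0.29 (adjusted p = 0.233). The median of the 8 genes was then −0.01, and that of all tested genes −0.09. S100a1, S100a10 and S100a16 stayed above the median of all tested genes. Scaling by RLE or by upper quartile changed no sign among the 8 genes. Mitochondrial reads made up 1.56% to 2.27% of counts in PDT and 2.26% to 3.14% in PBS, and 19686 to 22317 genes had a read in PDT libraries and 17537 to 19835 in PBS libraries. The part of these in the S100 values was not tested.

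Annexins had the smallest p among the partners of the S100 proteins, with Anxa6 and Anxa2 at positive and Anxa1 at negative values. Of 13 tested binding partners 0 passed the adjusted threshold in edgeR, and at an unadjusted p under 0.05 there were 2 higher and 1 lower in PDT, against 8.63% and 7.87% of all tested genes. DESeq2 called 1 of them, Anxa6, as higher, against 3.79% of its tested genes. The median log2 fold change of the list was 0.05. Anxa6, an annexin bound by S100a6 and S100a11, was at 246 ± 12.7 CPM in PDT and 188 ± 25.0 CPM in PBS (SD, n = 4 each), with a log2 fold change of 0.39 ± 0.12 (SE, adjusted p = 0.148 by edgeR) and groups that did not overlap. Anxa2, the partner of S100a10, was at 1968 ± 201 CPM in PDT and 1603 ± 100.2 CPM in PBS, a log2 fold change of 0.296 ± 0.12 (adjusted p = 0.249), again with no overlap. Thus 2 of 13 tested partners did not overlap with PDT higher, as was so for 5.0% of all tested genes. Anxa1, the partner of S100a11, had 838, 1061, 774 and 775 CPM in PDT 1 to PDT 4, against 1171, 1058, 1142 and 1000.5 CPM in PBS 1 to PBS 4. Its log2 fold change was −0.34 ± 0.13 (SE, adjusted p = 0.226 by edgeR), and PDT 2 was the library that overlapped with PBS.

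The ratio of S100a11 to Anxa1 within a library does not depend on library scaling. No ratio was corrected for transcript length and GC content, which differ between S100a11 (511 bases, 49.5% GC) and Anxa1 (1648 bases, 43.8% GC). On the log2 scale the S100a11 to Anxa1 ratio was 0.25, −0.08, 0.34 and 0.54 in PDT 1 to PDT 4, against −0.58, −0.63, −0.46 and −0.11 in PBS 1 to PBS 4. The groups did not overlap, with PDT higher and PDT 2 and PBS 4 nearest each other. The difference was 0.71, a fold of 1.64, with means of 0.26 ± 0.26 in PDT and −0.45 ± 0.23 in PBS (SD, n = 4 each). The two-sided exact permutation p was 0.0286, which is the lowest value that 70 assignments can give. Adjusted over the 3 ratios it was 0.0857, which did not pass 0.05.

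The ratio of S100a10 to Anxa2 was −1.03, −1.23, −1.32 and −1.20 on the log2 scale in PDT 1 to PDT 4, against −0.62, −1.30, −1.15 and −1.27 in PBS 1 to PBS 4. PBS 1 stood above all other libraries, and the groups overlapped otherwise. The difference was −0.11 (exact permutation p = 0.686, two-sided, and 0.686 after adjustment), and it was 0.05 without PBS 1. The ratio of S100a4 to S100a6 was −6.16 ± 1.24 in PDT and −5.77 ± 0.64 in PBS (SD, n = 4 each), a difference of −0.39 (exact permutation p = 0.686, two-sided, and 0.686 after adjustment). It was 0.17 without PDT 4, where S100a4 was lowest.

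**Figure D3:**
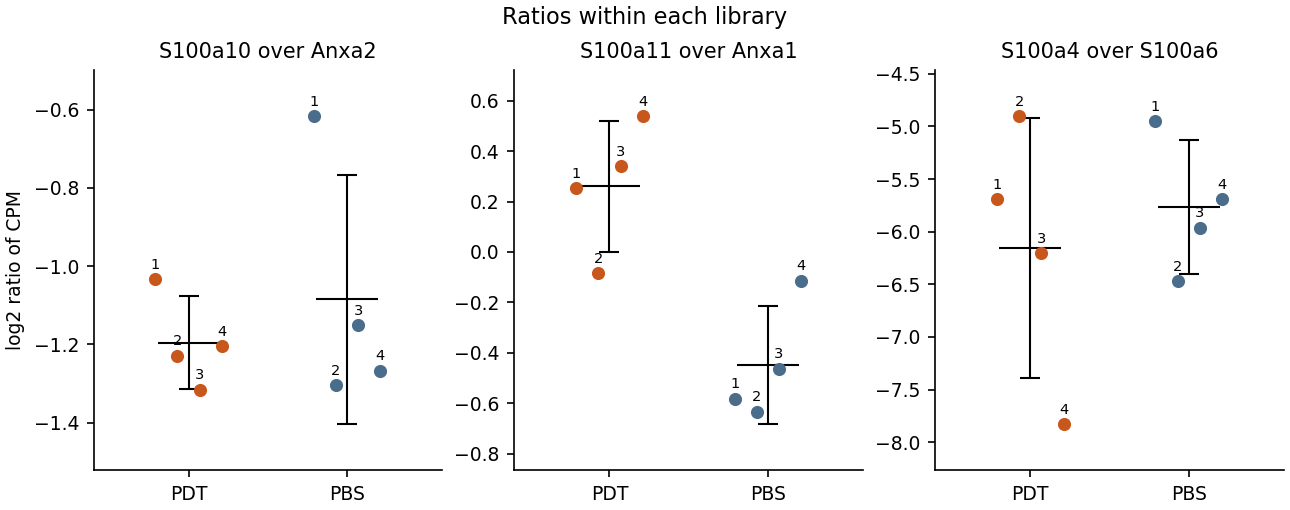
Log2 ratio of CPM between a pair of genes within each library (vertical axis, scale differs between panels), for the 4 PDT and 4 PBS libraries. Each point is 1 library with its replicate number, and the bar and whiskers are the mean and SD. The S100a11 over Anxa1 ratio is above −0.09 in every PDT library and below −0.11 in every PBS library, while the other ratios overlap between groups.

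Among the 6 tested receptors of secreted S100 proteins 0 passed the adjusted threshold, and 1 had an unadjusted p under 0.05, with a lower level in PDT, as in 7.87% of all tested genes. DESeq2 called the same gene as lower, as it did 2.57% of its tested genes. This was Alcam, a cell adhesion molecule also described as a receptor of S100b, at 118 ± 11.8 CPM in PDT and 185 ± 29.8 CPM in PBS (SD, n = 4 each), a log2 fold change of −0.65 ± 0.14 (SE, adjusted p = 0.0726 by edgeR). Its groups did not overlap, as was so, with PDT lower, for 5.12% of all tested genes. Mcam had a log2 fold change of −0.37 ± 0.20 (SE, adjusted p = 0.388 by edgeR). Tlr4, the receptor of bacterial lipopolysaccharide that S100a8 and S100a9 also engage, had one of −0.28 ± 0.24 (SE, adjusted p = 0.612 by edgeR). Ager, which encodes RAGE, was near the detection limit at 0 to 1.52 CPM over the 8 libraries.

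Of 9 other S100 genes, 6 were tested and 0 passed the adjusted threshold in edgeR or in DESeq2. At an unadjusted edgeR p under 0.05 there was 1 higher in PDT, against 8.63% of all tested genes. Their median log2 fold change was 0.02. The neutrophil genes S100a9 and S100a8 had the smallest p. S100a9 was at 91.4 ± 62.4 CPM in PDT and 34.6 ± 16.6 CPM in PBS (SD, n = 4 each), a log2 fold change of 1.4 ± 0.49 (SE, adjusted p = 0.183 by edgeR). S100a8 was at 110.3 ± 61.1 CPM in PDT and 59.3 ± 26.5 CPM in PBS, a log2 fold change of 0.89 ± 0.42 (SE, adjusted p = 0.313 by edgeR). Their high PDT libraries were PDT 1 and PDT 3, whereas S100a13, S100a6 and S100a1 were highest in PDT 1 and PDT 4. S100a14, an epithelial member that lies between S100a13 and S100a16, was at 16.7 ± 6.99 CPM in PDT and 13.8 ± 6.48 CPM in PBS, a log2 fold change of 0.27 ± 0.35 (SE, adjusted p = 0.77 by edgeR). S100a7l2 had 0 reads in all libraries, and S100a5 and S100z had too few reads to be tested.

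Other EF-hand genes were set beside the S100 genes. Of 10 tested, 0 passed the adjusted threshold, and at an unadjusted p under 0.05 there were 3 higher and 2 lower in PDT, where all tested genes had 8.63% higher and 7.87% lower. Their median log2 fold change was 0.19. DESeq2 called 1 higher, Efhd2, and 1 lower, Chp1, against 3.79% and 2.57% of its tested genes. Calm2, a calmodulin gene, was at 695 ± 65.9 CPM in PDT and 606 ± 71.9 CPM in PBS (SD, n = 4 each), a log2 fold change of 0.198 ± 0.13 (SE, adjusted p = 0.49 by edgeR).

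Within the groups the S100 genes varied together in part. After each group's mean was subtracted from log2 CPM, the 28 pairs of members had a median Pearson r of 0.33 over the 8 libraries, and 19 pairs were positive. These values are descriptions over libraries that share a scaling, and no test was made. S100a16 ran with S100a10 at r = 0.82 and with S100a6 at r = 0.81, and S100a1 ran with its overlapping neighbour S100a13 at r = 0.78 and with S100a6 at r = 0.77. S100a4 and S100a6, which are near neighbours on the chromosome, had an r of 0.06. S100a3, the low gene, ran against S100a10 at r = −0.84.

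**Figure D4:**
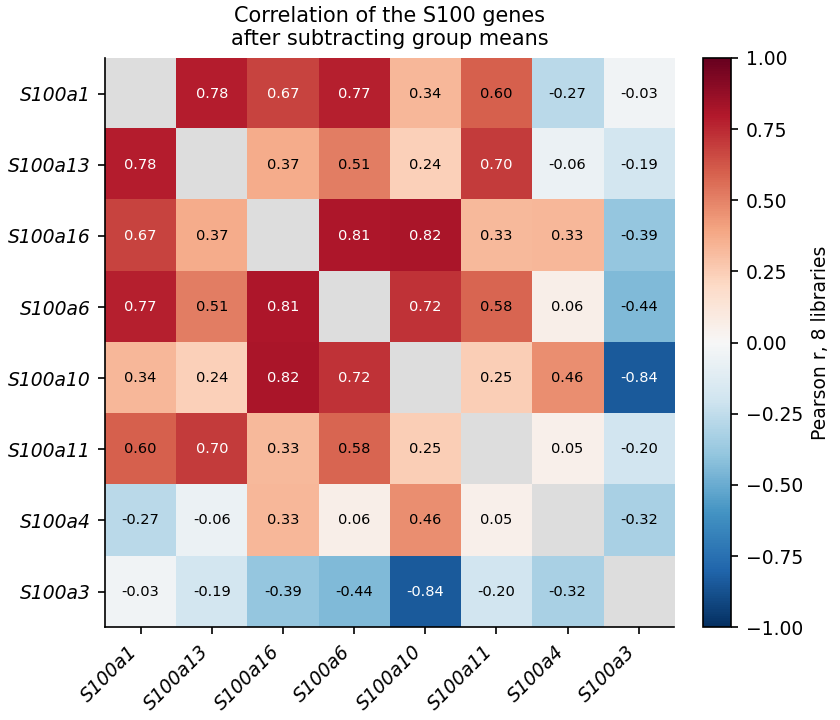
Pearson r between the 8 S100 genes over the 8 libraries, on log2 CPM after each group's mean was subtracted (rows and columns are genes, colour and number give r, grey is the gene with itself). S100a1, S100a13, S100a16, S100a6, S100a10 and S100a11 form a block of positive values, at 0.24 to 0.82, while all values of S100a3 are below 0 and those of S100a4 run from −0.32 to 0.46.

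Among 10834 genes with a mean of at least 5 CPM, those with a pattern most like a member by the same measure were as follows, each over 8 libraries. For S100a13 they were Cox6b1, a subunit of cytochrome c oxidase, at r = 0.989, Cfdp1 at r = 0.987 and Polr1d, a subunit of RNA polymerases, at r = 0.985. Cox6b1 had a log2 fold change of 0.84 and an r with S100a13 of 0.976 within PDT and 0.999 within PBS. It was picked for its high r over the same libraries, so these values are no separate check. Within PBS, S100a13 was at 51.2 CPM in a single library and at 20.4 to 22.4 CPM in the others. The r within PBS therefore rests largely on that library. The genes named for the other members were picked in the same way, and no test was made. For S100a11 they were Otub1, a deubiquitinase, at r = 0.966, Dlg3 at r = 0.954 and Katnal1 at r = 0.953. For S100a6 they were Cirbp, a cold-inducible RNA-binding protein, at r = 0.993, Plekhh3 at r = 0.977 and Aspscr1 at r = 0.977. For S100a4 they were Eif2b1, a subunit of the initiation factor eIF2B, at r = 0.995, Smim15 at r = 0.984 and Bag2, a chaperone regulator, at r = 0.981.

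For S100a1 the nearest genes were Sra1 at r = 0.979, Vamp8, a protein of vesicle fusion, at r = 0.968 and Nr2c2ap at r = 0.965. For S100a10 they were Qng1 at r = 0.972, Ctla2a at r = 0.968 and Efhd2, another EF-hand protein, at r = 0.966. Efhd2 was at 222 ± 5.88 CPM in PDT and 168 ± 3.72 CPM in PBS (SD, n = 4 each), a log2 fold change of 0.41 ± 0.10 (SE, adjusted p = 0.0951 by edgeR). Its groups did not overlap, as was so, with PDT higher, for 5.0% of all tested genes. For S100a16 they were Ssna1 at r = 0.987 and Dcxr at r = 0.955, and for S100a3 Prune1 at r = 0.982, C2cd2 at r = 0.98 and Xrcc5 at r = 0.963.

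The libraries held 39026840 to 48804713 counts in PDT and 35742024 to 40337306 in PBS, so that 3 reads, the limit that a count of 0 allows, correspond to 0.0665 to 0.0872 CPM. This limit covers counting error only and takes reads as counted independently. Most counts from 1 to 20 were even, and if each fragment was counted more than once, the limit would be higher. Markers of the labelled tumour were present: the 10 epithelial genes, led by Krt8 and Krt18, summed to 3273 to 6503 CPM in PDT and 3744 to 7629 CPM in PBS. Other cell types varied among libraries. Neutrophil markers other than S100 genes summed to 82.9 to 267 CPM in PDT and 48.3 to 109 CPM in PBS, with 8 of 8 tested markers higher in PDT, 0 called by edgeR, 5 at an unadjusted p under 0.05 and 2 called by DESeq2. T and NK cell markers summed to 22.5 to 31.5 CPM in PDT and 8.10 to 15.8 CPM in PBS, with 12 of 12 higher, 0 called by edgeR, 3 at an unadjusted p under 0.05 and 1 called by DESeq2. For each of these 2 lists DESeq2 gave an adjusted p for 7 markers. Of all tested genes 49.8% were higher in PDT, and 8.63% were so at an unadjusted edgeR p under 0.05. DESeq2 called 3.79% of its tested genes as higher. Endothelial markers summed to 109 to 140.1 CPM in PDT and 105 to 125 CPM in PBS, and genes of a mesenchymal state, led by Vim and Sparc, to 8801 to 10411 CPM in PDT and 9046 to 11576 CPM in PBS. Adipocyte markers stood at 490 CPM in PDT 3 and 386 CPM in PBS 2, and at 34.99 to 88.3 CPM elsewhere. Markers of skin keratinocytes summed to 17.2 to 60.4 CPM in PDT and 17.98 to 108 CPM in PBS, and those of Schwann cells and melanocytes to 22.3 to 32.3 CPM in PDT and 19.97 to 35.1 CPM in PBS.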

How the data were processed

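Libraries were directional and made from tumour RNA after removal of ribosomal RNA, per the labels' protocols. The authors deposited raw read counts per gene for 8 samples. Per the submitters' processing notes, Cutadapt 4.6, STAR 2.7.11b and GRCm39 belong to the processing, with no role given. Which counter, annotation and strandedness were used was not given in the sources used here. Counts were tested with edgeR 4.0.16 in R 4.3.3: genes were kept by filterByExpr (0.0694% to 0.109% of reads removed), scaled by TMM and fitted by quasi-likelihood, PDT minus PBS with no covariate, with Benjamini-Hochberg adjustment over all 16588 genes and a threshold of 0.05. SE is the log2 fold change over the root of F. Log2 CPM used a prior count of 2. Lengths and GC content came from GENCODE transcripts of GRCm38, by identifier, for 98.1% of tested genes, and were corrected with natural splines of 4 degrees of freedom per library.

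The members, 17 gene lists and tests were chosen with earlier results of these data known. Named genes were the 8 members, the list genes with the smallest p or highest level, and the 3 genes most like each member. Some genes that this rule names are not reported here. Cd68, Chp1 and the other list genes named for a call were chosen after their values were seen. Chi-square per degree of freedom was 69.5 to 145 over the 12 replicate pairs, far above sampling noise. The edgeR fit was tested on simulated data. Alternatives were DESeq2 1.42.0, limma-voom (limma 3.58.1), other scalings and filters, a replicate block, counts divided by 2 (since 77.9% to 83.8% of counts from 1 to 20 are even), and each library left out.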

Additional observations from a re-analysis of the deposited data

Results flagged for a closer look

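A pair of values stood far from the rest of its group, by a gap to the nearest library above Dixon's 95% critical value for the group's range. S100a11 in PDT 4, at 1126 CPM, lay above the other PDT libraries at 979 to 1001 CPM. S100a13 in PBS 4, at 51.2 CPM, lay above the other PBS libraries at 20.4 to 22.4 CPM. Chance alone flags about 1 in 20 groups, and 22 groups of 4 were examined.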

How the results depend on the processing

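The number of genes past the threshold, 39, was 869 in DESeq2, 167 in limma-voom, 534 with no count filter, 88 with at least 1 CPM in 4 samples, 69 with upper quartile scaling, 67 with counts divided by 2, 182 with the replicate block and 0 to 122 with a library left out. It was 0 without PDT 1 and without PBS 3, where 2162 and 2349 genes had an unadjusted edgeR p under 0.05, against 2737 with all libraries. The number of S100 members past it, 0, was 1 (S100a13) in DESeq2 and with no count filter, and 0 to 1 with a library left out (S100a13 without PBS 4). The median of the members, 0.21, was −0.0075 after the GC and length correction and 0.14 to 0.27 with a library left out. S100a1, S100a10 and S100a16 turned to −0.0139, −0.00109 and −0.0587 after that correction, S100a3 to 0.10 without PBS 2 (−0.43 to 0.10 over libraries left out), and S100a4 to 0.26, 0.05 and 0.21 without PBS 1, PDT 3 and PDT 4 (−0.35 to 0.26). S100a6 and S100a11 kept sign and call in all 18 alternatives, and S100a13 kept its sign. The S100a10 to Anxa2 ratio ran from −0.184 to 0.0453, that of S100a4 to S100a6 from −0.81 to 0.17 and that of S100a11 to Anxa1 from 0.62 to 0.83 with a library left out. The cause was not tested for these changes. Replicate numbers did not pair the samples: deviations from group means correlated at 0.04 to 0.07 between libraries of the same number.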
